A study of Mus musculus with 15 samples.

Results

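Activated cardiac fibroblasts were compared with both other cell groups of this series at once, to describe the genes that stood highest or lowest in them alone. The activated fibroblasts (aCF, 5 arrays) came from ventricles of wild-type C57BL/6 mice 5 days after myocardial infarction. The other groups were cardiac fibroblasts of unstressed control hearts (CF, 5 arrays) and epicardial stromal cells taken from the surface of infarcted hearts, also 5 days after infarction (EpiSC, 5 arrays). All mice were 8 to 12 weeks old. The labels' protocols describe collagenase digestion of perfused hearts, shear for the release of EpiSC, and removal of the atria for CF and aCF. They name no sham-operated group, so surgery and infarction cannot be told apart, and no cell sort is described in the protocols used here.

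For each probe set, the mean of the aCF arrays was set against the mean of the CF and EpiSC group means, and the difference was tested with limma's moderated test with Bonferroni adjustment over all 22206 probe sets. A probe set was counted as extreme in aCF alone when this contrast passed the threshold of 0.05 and aCF also differed, in the same direction and past the same threshold, from CF and from EpiSC each taken separately. Of 22206 probe sets, 52 met these conditions. Among them 47 were higher in aCF (0.212% of all probe sets) and 5 were lower (0.0225%), and 49 carried a gene name. Each value is a log2 difference from the probe set's own median over the 15 arrays, so 0 is that median and not absence, and only differences between groups can be read. The names rest on an inferred displacement of the identifiers against the values by 6900 rows, or 6903 rows on chromosomes 10 and 11, which no header or label states. The gene names stand or fall with it, and the numbers of probe sets called are the same either way.

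Fibroblasts hold the collagen network of the ventricle together. After infarction they divide, migrate into the wounded muscle, take on contractile features and secrete collagens, proteoglycans and matricellular proteins, which sit in the matrix and signal to cells without bearing load. The epicardium, the outer cell layer of the heart, is activated by the same injury and gives rise to stromal cells that share much of this matrix program. A gene that is high in aCF against resting fibroblasts may therefore be just as high in EpiSC. The contrast alone does not exclude such genes, and the added tests against each group separately were used for that.

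Correlations between arrays were taken over the 15303 probe sets paired with an identifier. They lay between 0.743 and 0.845 among CF arrays, 0.551 and 0.671 among EpiSC arrays and 0.213 and 0.54 among aCF arrays. Because values are centred, these correlations also depend on how far a group lies from the median of all arrays. The median SD within a group was 0.132 in CF, 0.159 in aCF and 0.175 in EpiSC, so aCF arrays did not vary most. The arrays aCF4 and aCF5 stood nearer to EpiSC than the other aCF arrays did, with mean correlations of 0.0309 and -0.00928 with the EpiSC arrays against -0.174 to -0.121 for aCF1, aCF2 and aCF3. Results are therefore also given without aCF4 and aCF5. Replicates are described as biological in the design text, and their number, 5 a group, limits the precision.

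In the contrast of aCF with the mean of both other groups, 155 probe sets passed as higher in aCF (0.698% of 22206) and 35 as lower (0.158%). Passing the contrast did not by itself place a gene highest in aCF. Of the 155, 47 passed against each group separately, 63 passed only against CF, 35 only against EpiSC and 10 against neither. The lower side was different in make-up: of the 35 probe sets, 5 passed against each group, 24 only against EpiSC and 3 only against CF. The aCF mean lay above both other group means in 4586 probe sets (20.7%) and below both in 6282 (28.3%), without any test. All 5 aCF arrays lay above the other 10 arrays in 292 probe sets (1.31%) and below them in 82 (0.369%), and the 52 extreme probe sets were all among these. Without aCF4 and aCF5 the contrast called 86 probe sets and 16 were extreme in aCF alone, 14 of them among the 52.

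**Figure D1:**
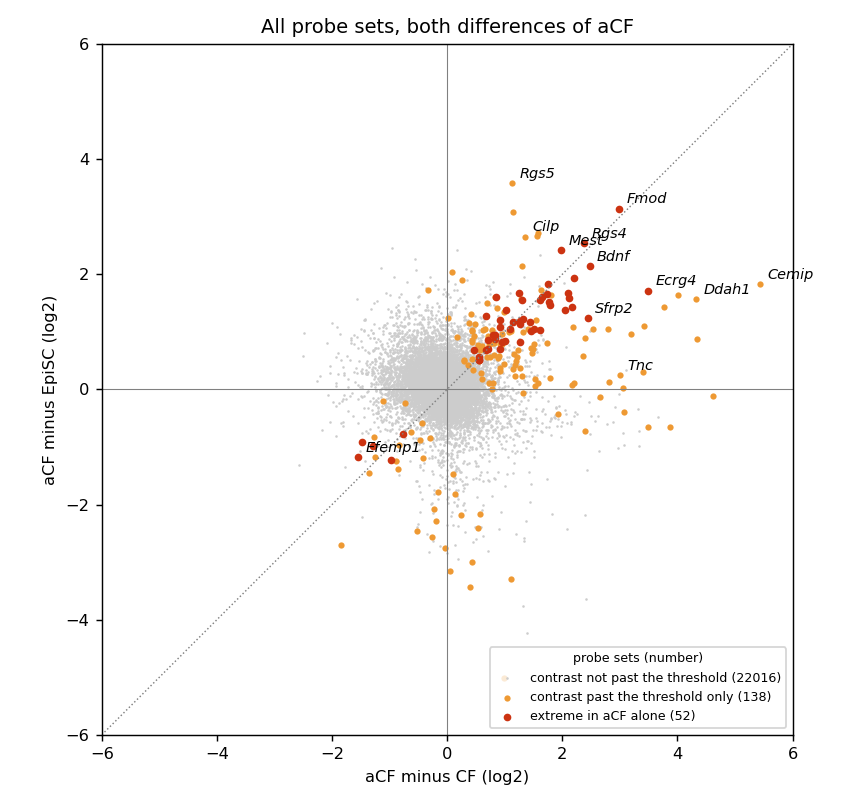
Difference of aCF from CF (x axis, log2) and from EpiSC (y axis, log2) for each of 22206 probe sets, with the dotted line where both are equal. The 52 probe sets extreme in aCF alone (red) lie at the upper right (47) and lower left (5), some near that line and some away from it, such as Ecrg4 with 3.49 from CF and 1.71 from EpiSC, while probe sets that passed the contrast only (orange) extend toward 1 axis, such as Cemip, Tnc and Rgs5.

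Fmod led the genes that were higher in aCF alone. It encodes fibromodulin, a small leucine-rich proteoglycan that binds collagen fibrils and controls their thickness. Its values in aCF1 to aCF5 were 3.04, 2.72, 3.08, 2.56 and 2.58. In the CF arrays they were 0.47, -0.38, -0.46, -0.58 and 0, and in the EpiSC arrays -0.54, -0.68, -0.23, 0.44 and -0.72. Every aCF array was high, the other groups overlapped each other around 0, and the lowest aCF array stood 2.09 above the highest array of any other group. The difference was 2.99 ± 0.23 (log2, SE, n = 5 arrays a group) from CF and 3.14 ± 0.23 from EpiSC, a fold of 7.92 and 8.83. Against the mean of both groups it was 3.06 ± 0.20 (limma, adjusted p = 6.79e-06) and 3.21 without aCF4 and aCF5 (adjusted p = 0.00158). Quantile normalization of the centred values raised it to 3.80, the single difference among the 49 genes that moved by over 1.5 times in fold. The related proteoglycan genes Lum (0.13 ± 0.06), Dcn (0.003) and Bgn (0.35, adjusted p = 0.198) did not pass. Fmod was the 1 member of 12 measured small leucine-rich proteoglycans that did (all probe sets, 0.698% higher). The median difference of the list was 0.055, against -0.018 over all probe sets.

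Acan and Ecrg4 stood with Fmod in the list of cartilage and tendon matrix genes. Acan encodes aggrecan, the large chondroitin sulfate proteoglycan that holds water in cartilage, and Ecrg4 the precursor of the secreted peptide augurin, better known as a candidate tumour suppressor and from the choroid plexus than from cartilage. The Acan values were 1.59, 1.70, 1.18, 2.14 and 1.54 in aCF1 to aCF5, and from -0.03 to 0.02 in CF. In EpiSC they lay between -0.31 and -0.03 except in EpiSC4, at 0.82. Acan was thus high in every aCF array and flat in CF, with 1 raised EpiSC array that did not reach the aCF range. It differed by 1.64 ± 0.20 from CF and by 1.6 ± 0.20 from EpiSC (larger adjusted p of both tests 0.0202), a call that was lost in 13 of 15 omissions of 1 array (adjusted p up to 0.106). For Ecrg4 the aCF arrays held 1.80, 1.71, 1.71, 1.62 and 1.78, the EpiSC arrays -0.47, 0, -0.10, 0.25 and 0.38, and the CF arrays -1.01, -1.74, -2.48, -2.03 and -1.57. The 3 groups did not overlap, EpiSC standing between CF and aCF, with differences of 3.49 ± 0.22 from CF and 1.71 ± 0.22 from EpiSC. The difference from EpiSC passed with an adjusted p of 0.031, and the call was lost in 12 of 15 omissions (up to 0.155).

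Promoter sequences are shown for Fmod, the gene with the largest difference, and for Ecrg4, Acan and Pdlim3, as examples among the 14 highest genes that hold the core motif of TEAD factors, the DNA-binding partners of the stretch-responsive coactivator YAP. Each is the 250 bases before the gene's start in RefSeq (build GRCm38.p6), 5′ to 3′, with the motif GGAATG, read on both strands and so also as CATTCC, in capitals.
Fmod (chr1:134037004-134037253, plus strand): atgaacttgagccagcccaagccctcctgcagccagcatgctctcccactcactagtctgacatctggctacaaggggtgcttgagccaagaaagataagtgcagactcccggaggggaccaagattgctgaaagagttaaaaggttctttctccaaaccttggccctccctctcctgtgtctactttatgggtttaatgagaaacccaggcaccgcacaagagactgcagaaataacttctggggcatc
Ecrg4 (chr1:43730352-43730601, plus strand): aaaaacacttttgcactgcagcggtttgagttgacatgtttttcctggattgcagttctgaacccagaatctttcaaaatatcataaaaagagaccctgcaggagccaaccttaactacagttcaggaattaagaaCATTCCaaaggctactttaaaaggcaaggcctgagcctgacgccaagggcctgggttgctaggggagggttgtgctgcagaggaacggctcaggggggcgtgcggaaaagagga
Acan (chr7:79052976-79053225, plus strand): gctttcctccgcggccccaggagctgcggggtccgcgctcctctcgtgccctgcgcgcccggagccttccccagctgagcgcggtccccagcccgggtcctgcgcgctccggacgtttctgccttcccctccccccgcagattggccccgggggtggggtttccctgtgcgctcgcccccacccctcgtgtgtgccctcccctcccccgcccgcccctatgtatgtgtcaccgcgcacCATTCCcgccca
Pdlim3 (chr8:45885237-45885486, plus strand): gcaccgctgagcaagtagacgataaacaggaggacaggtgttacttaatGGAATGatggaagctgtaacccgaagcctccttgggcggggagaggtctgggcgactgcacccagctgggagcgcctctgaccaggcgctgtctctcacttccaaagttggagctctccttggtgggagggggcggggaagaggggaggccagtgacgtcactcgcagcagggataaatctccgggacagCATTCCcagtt
In the full windows, which also hold 50 bases after the start, 36 of the 44 named higher genes had an entry and 11 of the 36 (30.6%) held GGAATG in at least 1 window, against 16.6% of 27025 genes in the table. Counted by window the share was 28.6% of 49, against 14.7% of 32851. The 11 genes were Bdnf, Ecrg4, Zfp185, Acan, Pdlim3, Hhat, Vamp5, Galnt10, Tnni3k, Pls3 and Fat1. The AP-1 motif TGACTCA, read on both strands, stood in the windows of Padi4 alone (2.78% of the 36 genes, against 5.95% of all genes). These are matches of letters in short windows and no record of binding, and no test was made on them. Ccn5 and Ccn2 had no entry.

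Of 26 measured genes of cartilage and tendon matrix, 8 passed as higher in aCF and 0 as lower (all probe sets, 0.698% and 0.158%). The median of the list was nevertheless 0.002 (all probe sets, -0.018). Beside Fmod, Ecrg4 and Acan these were Cilp (2.00), Col11a1 (1.80), Comp (1.69), Frzb (1.10) and Tnmd (1.04). The list was uneven: the defining cartilage genes Col9a1 (-0.01), Matn1 (-0.015) and Chad (-0.07) stood near 0, Sox9, the transcription factor of cartilage cells, differed by 0.78 (adjusted p = 0.916), and Col10a1 of mature cartilage by -0.48 (adjusted p = 1). Comp, a pentameric cartilage protein, held 1.53, 1.57, 1.52, 1.46 and 1.09 in aCF, from -0.59 to 0.29 in CF and from -0.91 to 0.62 in EpiSC. Its aCF arrays did not overlap those of either other group, yet it passed against neither group alone (1.64 from CF, adjusted p = 0.272, and 1.73 from EpiSC, adjusted p = 0.143). Tnmd, tenomodulin of tendon cells, missed by a little (1.07 from CF, adjusted p = 0.0281, and 1.00 from EpiSC, adjusted p = 0.0593). The count of 8 rested on the arrays used: it was 4 or 5 without any one of CF2, CF3, CF4, CF5, EpiSC2 or aCF1 to aCF5, and 2 without both aCF4 and aCF5.

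Cilp, cartilage intermediate layer protein, stood apart in aCF from both groups, but passed the threshold against EpiSC only. Its aCF values were 1.42, 1.35, 1.49, 1.39 and 1.49, the CF values -0.14, 0, 0, 0.35 and 0.18, and the EpiSC values -1.84, -1.01, -2.04, -0.90 and -0.33. The 3 groups were separate, with aCF highest, at least 1 above every other array, and EpiSC lowest. The SD was 0.706 in EpiSC, 0.19 in CF and 0.0618 in aCF, and each test used 1 estimate of the spread from all 3 groups. The contrast passed (2.00 ± 0.21, adjusted p = 0.00397), as did the difference from EpiSC (2.65, adjusted p = 0.000694), while the difference from CF of 1.35 did not (adjusted p = 1). Cilp was the 1 of 5 marker genes named for these cells (Fmod, Bdnf, Rgs4, Ccn5 and Cilp) that was not extreme in aCF alone.

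Among matricellular proteins, both Ccn5 and Ccn2 were higher in aCF alone. Ccn2 encodes connective tissue growth factor, a known target of YAP and of TGF-beta, and Ccn5 a member of the same family that lacks its C-terminal domain. Ccn5 measured 1.08, 1.48, 1.16, 1.5 and 1.32 in aCF, between -0.21 and 0.41 in CF and between -0.72 and 0.03 in EpiSC. It differed by 1.31 ± 0.14 from CF and by 1.56 ± 0.14 from EpiSC, and it was called in all 15 omissions of 1 array (adjusted p up to 0.0359) but not without both aCF4 and aCF5 (0.231). Ccn2 measured 0.62, 1.21, 1.32, 0.96 and 1.08 in aCF, at most 0.01 in CF and at most 0.25 in EpiSC. All aCF arrays stood above the others, aCF1 by the least, and the differences of 1.14 ± 0.13 and 1.16 ± 0.13 were nearly equal. The call of Ccn2 was lost without CF1, CF3, CF5, aCF2 or aCF5 (up to 0.0654). Ccn1, another known target of YAP, differed by 0.35 from the mean of both groups (adjusted p = 1), with overlapping arrays.

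Of 16 measured matricellular genes 4 passed as higher and 0 as lower (median 0.35, all probe sets 0.698% and 0.158%). Tnc, tenascin C, and Postn, periostin, passed through CF. Tnc differed by 3.00 from CF and by 0.24 from EpiSC, and Postn by 1.17 from CF (adjusted p = 7.28e-07) and by 0.42 from EpiSC (adjusted p = 0.325). Postn nevertheless showed no overlap, with 0.44, 0.47, 0.52, 0.32 and 0.25 in aCF against a highest EpiSC array of 0.07. Thbs1 (0.75), Fbln2 (0.49) and Sparc (0.21) did not pass.

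Among collagens, Col1a1 and Col11a1 stood further from CF than from EpiSC, while the list as a whole did not. Of 23 measured fibrillar and fibril-associated collagens, 4 passed the contrast as higher and 0 as lower (all probe sets, 0.698% and 0.158%). None was extreme in aCF alone. The median of the list was 0.30 in the contrast, 0.17 from CF and 0.364 from EpiSC. Col1a1, the main collagen of scar, held 0.22, 0.16, 0.18, 0.25 and 0.20 in aCF, from -1.10 to -0.83 in CF and from -0.20 to 0.07 in EpiSC. Its arrays did not overlap, but aCF stood 1.18 above CF and 0.24 above EpiSC (adjusted p = 1). Col11a1, which nucleates thin fibrils, had the largest smaller difference of the list, with 2.54 from CF and 1.06 from EpiSC (adjusted p = 1). Of 22 genes that fold, process and cross-link collagen, 4 passed as higher (median 0.28, all probe sets 0.698% higher). The count was 7 after quantile normalization, 2 in the trended and robust fit and 1 without aCF4 and aCF5. P4ha3, a prolyl hydroxylase subunit, led them with 3.41 from CF and 1.11 from EpiSC (adjusted p = 0.16). Lysyl oxidase Loxl3 (0.71), the collagen receptor Mrc2 (0.545) and the chaperone Serpinh1 (0.45) were the others.

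Elastic fibre genes held 1 extreme member in each direction. Mfap4, a microfibril-associated protein, measured 0.97, 1.03, 0.98, 1.03 and 0.87 in aCF and at most 0.01 in CF and 0.17 in EpiSC, a difference of 1.27 ± 0.13 and 1.13 ± 0.13. Efemp1, fibulin-3, had the largest smaller difference on the lower side, as given below. Of 12 measured members these were the 1 that passed as higher and the 1 as lower (median 0.28, all probe sets 0.698% and 0.158%). Elastin itself, Eln, differed by 0.91 (adjusted p = 0.27) with no overlap of arrays. Without EpiSC4 a second elastic fibre gene passed as higher, and after quantile normalization 4 did. In 17 basement membrane genes 1 passed as higher, Col4a2 (0.86), with a second without EpiSC3 (median 0.077, all probe sets 0.698% higher). Lamc3, which had the largest smaller difference, measured -0.825 (adjusted p = 1). In 22 metalloproteinases and inhibitors 3 passed as higher, Mmp16, Mmp11 and Mmp23 (median -0.0015, all probe sets 0.698% higher). Mmp3, the stromelysin with the largest smaller difference, measured -0.996 (adjusted p = 1).

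Among secreted Wnt antagonists, Sfrp2 was higher in aCF alone. These proteins bind Wnt ligands or their receptors outside the cell. Sfrp2 measured 1.26, 1.05, 1.13, 1.23 and 1.23 in aCF, -0.33, -0.09, 0, 0.07 and 0.08 in EpiSC, and -1.30, -1.30, -1.35, -1.38 and -0.99 in CF. The groups were 3 separate and narrow bands, aCF highest and CF lowest. The differences were 2.44 ± 0.09 from CF and 1.23 ± 0.09 from EpiSC, and at 1.64e-08 Sfrp2 had the lowest adjusted p of the contrast among the 49 genes. It remained extreme in aCF alone in all 15 omissions and without aCF4 and aCF5 (adjusted p = 0.00256). Sfrp1 differed by 1.30 from CF (adjusted p = 0.102) and by 2.14 from EpiSC (adjusted p = 0.000225), and Frzb, also called Sfrp3, by 0.69 (adjusted p = 1) and 1.51 (adjusted p = 0.00345). Of 11 measured Wnt antagonists and R-spondins these 3 passed the contrast as higher and 0 as lower (median 0.33, all probe sets 0.698% and 0.158%). Dkk3 (0.49) and Wif1 (-0.42) did not pass.

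Bdnf was the neurotrophic gene that stood out. It encodes brain-derived neurotrophic factor, a secreted ligand of the receptor TrkB on neurons and endothelium. Its aCF values were 1.73, 2.41, 1.68, 2.86 and 2.20, with CF from -0.55 to 0 and EpiSC from -0.42 to 0.55. The aCF arrays varied more for Bdnf (SD 0.49) than for Fmod (SD 0.25), with aCF4 highest, and still lay at least 1.13 above every other array. Bdnf differed by 2.47 ± 0.22 from CF and by 2.14 ± 0.22 from EpiSC, a fold of 5.56 and 4.42, and by 2.07 without aCF4 and aCF5 against the mean of both groups (adjusted p = 0.0263). Of 8 measured neurotrophic factors and receptors 2 passed as higher, Bdnf and the sorting receptor Sort1 (0.63, adjusted p = 0.0427). The median was -0.001, and over all probe sets 0.698% passed as higher. Sort1 passed through EpiSC alone (1.25, against 0.02 from CF), and the count was 1 in 13 of 15 omissions of 1 array, all but those of CF1 and CF5. The neurotrophin receptor gene Ntrk3 measured -1.08 and Ntf5 -0.07, neither past the threshold.

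Guidance molecules of axons included 2 genes higher in aCF alone. Sema7a encodes a membrane-anchored semaphorin that binds integrins and plexin C1. It measured 1.73, 1.81, 1.44, 2.13 and 1.89 in aCF, between -0.69 and 0.39 in EpiSC, and -0.30, -0.30, -0.32, -0.30 and -0.78 in CF. The difference was 2.20 ± 0.18 from CF and 1.94 ± 0.18 from EpiSC, and the call held in all 15 omissions and without aCF4 and aCF5 (adjusted p = 0.0399). Unc5b, a receptor of netrins, measured 0.59 to 0.95 in aCF, at most 0.20 in CF and at most 0.08 in EpiSC. It differed by 0.79 ± 0.10 and 0.95 ± 0.10, a call lost in 12 of 15 omissions (up to 0.223). The other 28 of 30 measured semaphorin, slit, netrin and receptor genes did not pass (median of the 30, 0.083, all probe sets 0.698% higher). Plxnc1, the gene of the Sema7a receptor plexin C1, was ordered differently, with CF highest (0.58 to 0.73), aCF between (-0.39 to 0.11) and EpiSC lowest (-1.5 to -0.92). Itgb1, the integrin beta chain shared by most collagen and fibronectin receptors, passed the contrast (0.385 ± 0.04, adjusted p = 0.0109) but not against CF (0.28, adjusted p = 1). It was 1 of 2 that passed among 17 integrins, beside Itga11 (all probe sets, 0.698% higher), and 1 passed without any one of aCF2 to aCF5.

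Rgs4 encodes an activator of the GTPase of G alpha subunits, which shortens signals of G protein-coupled receptors. The aCF arrays held 2.00, 1.78, 1.83, 2.21 and 1.93. In CF the values were 0, 0.12, -0.07, -1.17 and -1.01, and in EpiSC -0.53, -0.56, -0.38, 0.10 and -1.57. The aCF arrays were tightly grouped (SD 0.17) while both other groups were spread (SD 0.61 each), with CF4, CF5 and EpiSC5 lowest. Rgs4 differed by 2.38 ± 0.30 from CF and by 2.54 ± 0.30 from EpiSC, second to Fmod in the smaller of both differences. Its adjusted p of 0.0248 against CF was close to the threshold, and the call was lost in 11 of 15 omissions (up to 0.134). Rgs5, a regulator known from pericytes, passed the contrast too (2.355, adjusted p = 0.000718), through EpiSC (3.58) rather than CF (1.13, adjusted p = 1). These were the 2 of 15 measured regulators of G protein signalling that passed (median -0.04, all probe sets 0.698% higher).

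Mest and Vegfd were each the 1 extreme member of their list. Mest, a paternally expressed imprinted gene of the hydrolase fold, which is high in embryonic mesoderm, measured 2.09, 2.20, 2.01, 1.78 and 1.88 in aCF. It lay between -0.42 and 0.39 in CF and between -0.73 and -0.03 in EpiSC, and aCF stood 1.98 ± 0.16 above CF and 2.42 ± 0.16 above EpiSC, without overlap. The call held in every omission of 1 array and without aCF4 and aCF5 (adjusted p = 0.00282). Igf2, an imprinted growth factor, was the other of 17 imprinted genes that passed (0.85, adjusted p = 0.0068), by 1.04 from EpiSC (adjusted p = 0.00316) and 0.66 from CF (adjusted p = 0.689), and it did not pass without aCF2 or without aCF5. The imprinted genes Peg3 (0.26), Grb10 (0.21) and Cdkn1c (-0.10) did not pass (median of the list 0.074, all probe sets 0.698% higher). Vegfd, a ligand of lymphatic endothelial receptors, measured 0.91 to 1.13 in aCF, at most -0.21 in CF and at most 0.32 in EpiSC. It differed by 1.45 ± 0.12 and 1.02 ± 0.12, with the call lost in 9 of 15 omissions (up to 0.102). Vegfd was the 1 of 12 PDGF and VEGF ligands and receptors that passed (median 0.23, all probe sets 0.698% higher).

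In the TGF-beta and BMP pathway 2 of 28 measured genes passed as higher (all probe sets, 0.698%) and 0 were extreme in aCF alone (median 0.089). The BMP family ligand Gdf6 passed through CF (2.40) and not EpiSC (0.89, adjusted p = 0.227), and the second was the Smad corepressor Skil (0.63, adjusted p = 0.0223). Tgfb1, the ligand, measured between 0.22 and 0.49 in aCF, between -0.27 and 0.09 in CF and between -0.58 and -0.26 in EpiSC. Its aCF arrays did not overlap those of either other group, but the contrast of 0.565 did not pass (adjusted p = 0.0545). The count of 2 was 1 without any one of CF1, CF3, EpiSC1, EpiSC3, EpiSC4, EpiSC5 or aCF1 to aCF4. In the Notch list 1 of 11 passed as higher, Heyl (median 0.24, all probe sets 0.698% higher), and Lfng, a glycosyltransferase of Notch, measured 0.85 (adjusted p = 1).

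The remaining genes of the 14 highest have roles in membranes, the cytoskeleton and the nucleus. Kcne4, an accessory subunit of potassium channels, differed by 1.75 ± 0.21 from CF and by 1.84 ± 0.21 from EpiSC, with 1.71, 1.97, 2.15, 1.85 and 1.01 in aCF. Zfp185, a LIM domain protein of actin structures, differed by 2.09 ± 0.20 and 1.67 ± 0.20. Scube2, a secreted protein that helps release Hedgehog ligands, differed by 1.74 ± 0.19 and 1.65 ± 0.19. In these genes the array aCF5, aCF4 or both stood lowest within aCF, and each of the 3 kept its call without both (adjusted p = 0.0104, 0.0292 and 0.00026). Over single omissions the Kcne4 call was lost in 11 of 15, that of Zfp185 in 3 and that of Scube2 in 0. Zdhhc2, a protein palmitoyltransferase, differed by 2.12 ± 0.19 from CF and by 1.58 ± 0.19 from EpiSC. Eya4, a transcriptional coactivator with phosphatase activity, differed by 1.61 ± 0.18 and 1.55 ± 0.18. Grb14, an adaptor that inhibits the insulin receptor, differed by 1.77 ± 0.17 and 1.51 ± 0.17. Pdlim3, a PDZ and LIM protein that binds alpha-actinin, differed by 1.78 ± 0.16 and 1.47 ± 0.16. Grb14 and Pdlim3 were called in all 15 omissions, Zdhhc2 in 9 and Eya4 in 10.

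**Figure D2:**
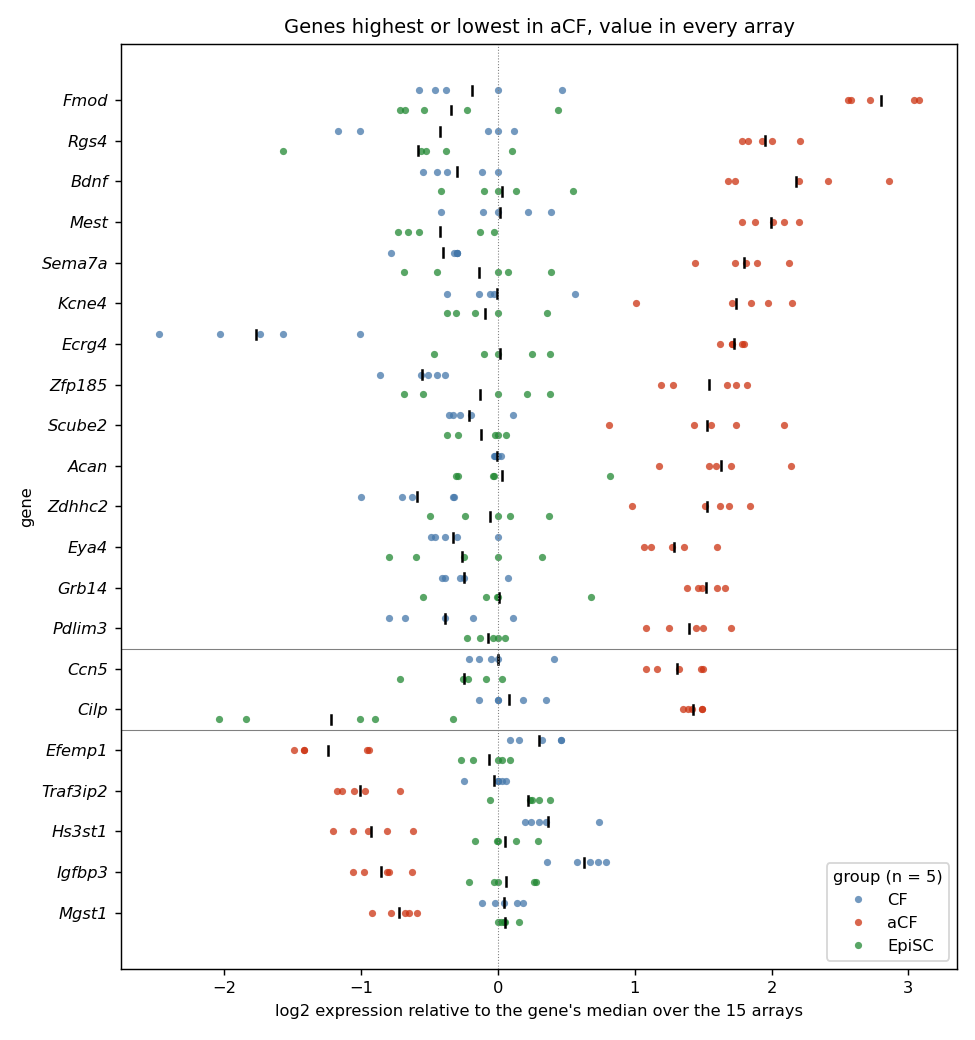
Log2 expression relative to each gene's median over the 15 arrays (x axis) for the 14 highest genes, Ccn5, Cilp and the 5 lowest genes (rows), with 1 point an array, 5 arrays a group, and black bars at the group means. The aCF points lie apart from both other groups in every row, to the right for the upper 16 genes and to the left for the lower 5, and Ecrg4, Cilp and Igfbp3 are the rows where CF and EpiSC also lie apart.

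A further 22 genes were extreme in aCF alone with smaller differences, from 0.472 to 1.43 on the log2 scale for the nearer of both groups. They lay outside the rule for the genes to be named and were grouped after their values were seen. Ptn and Mdk, pleiotrophin and midkine, are the 2 members of 1 family of heparin-binding growth factors. Ptn measured 1.47, 1.36, 1.35, 1.23 and 1.48 in aCF and differed by 1.38 from EpiSC, and Mdk measured 0.80, 0.77, 0.79, 0.54 and 0.81 and differed by 0.83 from EpiSC. Both were lowest in CF, and both calls were fragile, lost in 12 and 13 of 15 omissions. Clec11a, a secreted growth factor of bone marrow stroma, held its call in all 15 (contrast 1.27 ± 0.10). Hhat, which attaches the fatty acid to Hedgehog proteins, also held in all 15 (1.31 ± 0.11), as did Padi4, a protein arginine deiminase (1.47 ± 0.11).

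The others are given by what each is known to do. Chpf, the chondroitin polymerizing factor, had a contrast of 0.97, the xylosyltransferase Gxylt2 of 1.06, and Galnt10, which starts O-linked chains, of 0.89. Fhl2, a LIM protein of actin and the nucleus, had 1.32, the actin bundling protein Pls3 0.53 and the atypical cadherin Fat1 0.58. The tetraspanin Tspan6 (1.80), the ubiquitin ligase Rnf152 (1.23), the vesicle protein Vamp5 (1.00), Nbea (1.22), Garre1 (1.07) and Golga7 (0.79) belong to membrane traffic or signalling at membranes. The potassium channel Kcnh1 (0.89), the glycogen phosphorylase Pygb (0.85), the kinase Tnni3k (0.71), the surface glycoprotein Mpzl1 (0.56) and the choline transporter-like protein Slc44a2 (0.53) completed the list. The last 2 had small differences and small spreads, with aCF between 0.45 and 0.63 in every array and no other array above 0.12. Pdgfrl, a fibroblast gene related to PDGF receptors and named by the fixed rule, measured 0.87 to 1.16 in aCF and at most 0.04 in any other array.

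On the lower side 5 genes were extreme, all named. Efemp1, the secreted matrix protein fibulin-3, measured -0.96, -1.49, -0.94, -1.42 and -1.42 in aCF, 0.09, 0.46, 0.46, 0.15 and 0.32 in CF, and -0.18, 0.03, 0, -0.27 and 0.09 in EpiSC. All aCF arrays were low and EpiSC stood slightly below CF. It differed by -1.54 ± 0.12 from CF and by -1.18 ± 0.12 from EpiSC, and the call held in all 15 omissions of 1 array. Igfbp3, a secreted binding protein that carries insulin-like growth factors, measured -0.63, -0.80, -1.06, -0.98 and -0.81 in aCF, 0.36 to 0.79 in CF and -0.21 to 0.28 in EpiSC. It differed by -1.48 ± 0.11 and -0.92 ± 0.11, a call lost in 8 of 15 omissions (up to 0.106). In the IGF list of 12 genes Igfbp3 was the 1 that passed as lower beside Igf2 as the 1 higher (all probe sets, 0.158% and 0.698%). The call of Igf2 was lost without aCF2 or aCF5, and the median of the list was 0.049.

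Traf3ip2, an adaptor of the interleukin-17 receptor, measured between -1.18 and -0.72 in aCF and differed by -0.98 ± 0.10 from CF and -1.23 ± 0.10 from EpiSC. Mgst1, a microsomal glutathione transferase, measured between -0.92 and -0.59 and differed by -0.77 ± 0.07 and -0.78 ± 0.07. Both calls held in all 15 omissions, and that of Mgst1 held without aCF4 and aCF5 (adjusted p = 0.00415). Hs3st1, which adds the rare sulfate of anticoagulant heparan sulfate, differed by -1.30 ± 0.13 and -0.98 ± 0.13, with the call lost in 12 of 15 omissions (up to 0.181). A trended and robust limma fit ended the calls of Efemp1 (adjusted p = 0.0879), Traf3ip2 (0.137), Hs3st1 (0.168) and Mgst1 (0.212), and Igfbp3 kept its call (0.0188).

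Genes known from activated fibroblasts and myofibroblasts are described next, in the same contrast and with earlier results of these data known, so that they give no independent support to the label. Of 18 measured genes, among them the label markers Ccn5 and Cilp, 14 passed as higher and 0 as lower. Over all probe sets the shares were 0.698% and 0.158%. The median was 1.08, against -0.018 over all probe sets. The list mean was 0.55 to 0.70 in the aCF arrays, -0.54 to -0.06 in EpiSC and -1.0 to -0.82 in CF. In 2 genes, Sfrp2 and Ccn5, aCF was highest past the threshold against each group. Others passed through CF, such as Adam12, a metalloproteinase of the injured stroma, which differed by 3.07 from CF and by -0.39 from EpiSC, and Ddah1 (4.33 and 1.57), and Itga11 through EpiSC (0.09 and 2.03). Resting fibroblast genes were ordered differently, and 0 of 17 passed in either direction in limma (median -0.004), and without adjustment 2 were higher and 5 lower at p under 0.05, where 9.72% of all probe sets were higher and 9.83% lower. Inmt, a methyltransferase and the member whose smaller pairwise difference was largest in size, measured -1.44 (-2.17 from CF and -0.71 from EpiSC, adjusted p = 1). Their list mean lay between -0.20 and -0.016 in aCF, below the 0.57 to 0.73 of CF and overlapping the -1.1 to -0.16 of EpiSC. Of 15 general fibroblast markers 3 passed as higher (median 0.26), and the lineage factor Tcf21 differed by -0.38 from CF and 0.98 from EpiSC, both short of the threshold. Because values are centred, none of these markers can be called present or absent. Pdgfra and Acta2 were not analysed here.

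**Figure D3:**
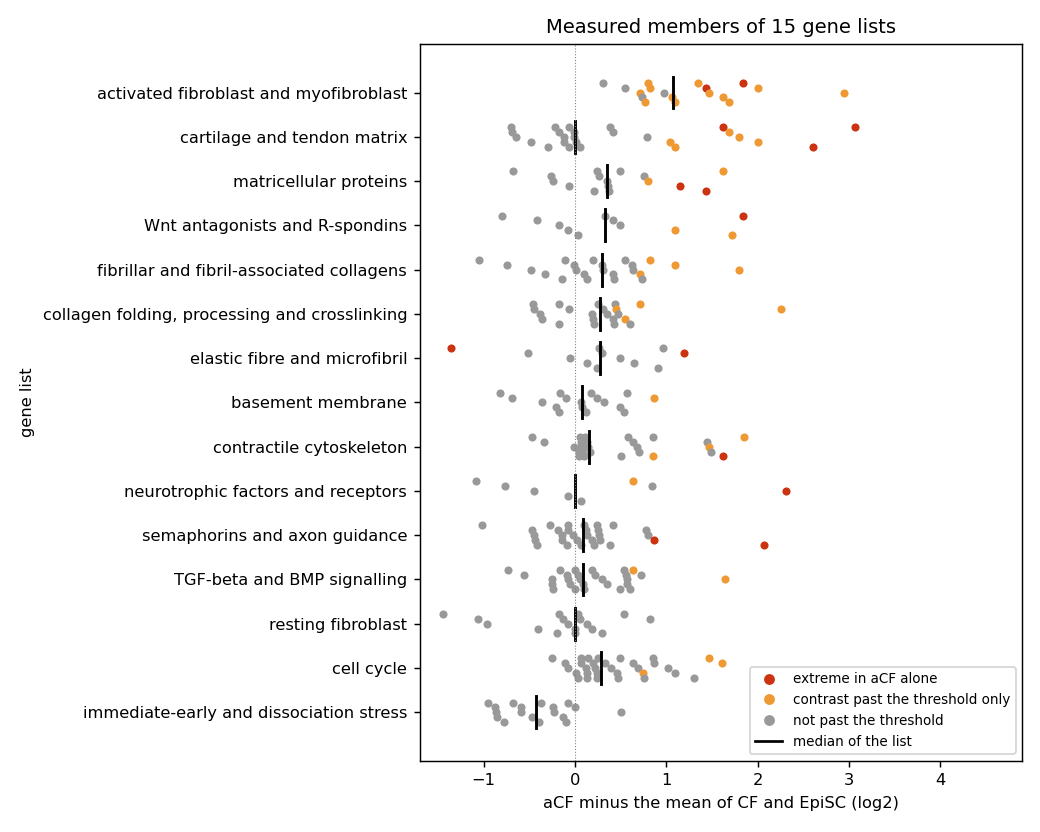
Difference of aCF from the mean of CF and EpiSC (x axis, log2) for each measured member of 15 gene lists (rows), coloured by whether the gene passed the contrast and whether it was extreme in aCF alone, with black bars at list medians. The activated fibroblast list lies wholly to the right of 0 with a median of 1.08, while the cartilage list spreads on both sides of 0.002 with Fmod at 3.06 and Ecrg4 at 2.60.

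In the contractile cytoskeleton most calls came from the difference to CF. Of 26 measured, 4 passed as higher (all probe sets, 0.698%) and Pdlim3 alone was extreme in aCF (median 0.15). Palld, palladin of stress fibres, differed by 3.40 from CF and by 0.30 from EpiSC, and Tagln, transgelin, by 2.36 and 0.57. Calponin Cnn1 measured 2.98 above CF and -0.09 from EpiSC, and its contrast did not pass. The list mean of aCF (0.085 to 0.40) overlapped that of EpiSC (0.084 to 0.36) and lay above that of CF (-0.73 to -0.61).

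Cell cycle genes placed aCF between the other groups. Of 32 measured, 3 passed the contrast as higher (all probe sets, 0.698%) and 0 were extreme (median 0.29). The median difference was 1.42 from CF and -0.68 from EpiSC. Kif23, a kinesin of cytokinesis, differed by 2.81 from CF and by 0.13 from EpiSC. The count of 3 ranged from 1 to 7 over the omissions of 1 array, beyond 1.5 times for CF2, CF4, EpiSC4, EpiSC5 and each aCF array. Interferon-stimulated genes (0 of 23 passed, median -0.075), glycolysis genes (0 of 19, median -0.14) and chaperones of the endoplasmic reticulum (0 of 12, median -0.026) gave no call in limma. Without adjustment, at p under 0.05, the first list had 2 higher and 10 lower, the second 0 and 6, and the third 1 and 1, beside 9.72% higher and 9.83% lower over all probe sets, and with Benjamini-Hochberg adjustment 1, 0 and 0 were higher. The members picked by the same measure had contrasts of -0.24 (Ifi35), -0.33 (Bnip3) and -0.17 (Xbp1), none past the threshold. Immediate-early genes, which cell isolation can induce, also gave 0 calls of 18. Of the 18, 13 had their lowest mean in aCF (median -0.43), against 28.3% of all probe sets. Without adjustment 11 were lower and 1 higher at p under 0.05 (all probe sets, 9.83% and 9.72%). The member with the largest smaller difference was Nr4a3 (-0.95, adjusted p = 1), with aCF between -1.71 and -0.09. Its aCF arrays did not overlap the others, by a gap of 0.03 only. EpiSC alone were released by shear, while CF and aCF shared the ventricular preparation, and the part of isolation in these values was not tested.

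Markers of other heart cells moved with aCF in 2 cases. In bulk RNA, fewer cells of a type and less RNA per cell cannot be told apart. Of 15 pericyte and smooth muscle markers 4 passed as higher and 0 as lower (median 0.70, all probe sets 0.698% and 0.158%). Their highest mean was in aCF for 8, against 20.7% of all probe sets. Without adjustment 10 were higher and 2 lower at p under 0.05 (all probe sets, 9.72% and 9.83%). The list mean was 0.25 to 0.52 in the aCF arrays, -0.55 to -0.015 in CF and -0.71 to -0.41 in EpiSC. Mcam, the adhesion molecule CD146, measured 1.86, 1.29, 1.23, 1.88 and 2.05 in aCF, -0.42 to 0.51 in CF and -1.85 to -0.46 in EpiSC. It passed the contrast (2.14 ± 0.25, adjusted p = 0.0135) and the difference from EpiSC, but not from CF (1.58, adjusted p = 1). The pericyte genes Higd1b (0.33 from CF), Kcnj8 (-0.30) and Abcc9 (-0.62) were not higher in aCF than in CF past the threshold. What part mural cells had in Rgs4, Kcne4, Pdlim3 or other genes given above was not tested.

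Macrophage and monocyte markers were the second case, with 13 of 17 highest in aCF by mean, against 20.7% of all probe sets. Of the 17, 2 passed as higher and 0 as lower (median 0.41, all probe sets 0.698% and 0.158%). Without adjustment 12 were higher and 1 lower at p under 0.05 (all probe sets, 9.72% and 9.83%). The list mean was 0.14 to 0.35 in aCF, -0.34 to -0.18 in CF and -0.16 to -0.057 in EpiSC, without overlap. Ctss, the lysosomal protease cathepsin S, was extreme in aCF alone, with 0.83, 0.64, 0.66, 0.93 and 0.97 in aCF, at most -0.10 in CF and at most 0.31 in EpiSC. Its differences were 1.00 ± 0.10 and 0.85 ± 0.10, and the call was lost in 11 of 15 omissions (up to 0.122). Plac8 passed through CF (3.49, and -0.65 from EpiSC). Lysozyme Lyz2 (0.95) and C1qa (0.96), both abundant in heart macrophages, and the common leukocyte antigen Ptprc (-0.09) did not pass. The part of macrophages in the difference of Ctss was not tested.

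The other lists of cell types held at most 1 call in each direction, beside 0.698% higher and 0.158% lower over all probe sets. Without adjustment, at p under 0.05 in limma, 9.72% of all probe sets were higher and 9.83% lower. Of 17 endothelial markers 1 passed as higher, the receptor phosphatase Ptprb (2.11, through EpiSC with 3.09), and 1 as lower, the water channel Aqp1 (-1.42), with a median of 0.026 and, without adjustment, 6 higher and 1 lower. Of 14 epicardial and mesothelial markers 1 passed as lower, Slc9a3r1 (-0.94), and 0 as higher, while without adjustment 12 were lower and 0 higher at p under 0.05. The epicardial list mean was -0.59 to 0.2 in aCF, -0.81 to -0.15 in CF and 1.4 to 2.2 in EpiSC. Upk3b, a uroplakin of mesothelium, measured -1.57 (adjusted p = 1), with -2.82 from EpiSC and -0.32 from CF. Heart muscle markers gave 0 calls of 18 in limma and 2 lower without adjustment (median 0.026, all probe sets 9.83% lower). Their list mean was -0.534 in aCF4 and -0.445 in aCF5, within or below the EpiSC range of -0.48 to -0.26, and 0.0372, 0.159 and 0.248 in aCF1, aCF2 and aCF3, against 0.19 to 0.37 in CF. What part heart muscle RNA had in the spread among aCF arrays was not tested. The atrial light chain Myl7 measured -1.455 (adjusted p = 0.484). Of 10 Schwann and glial markers 1 passed, the fatty acid binding protein Fabp7 (1.06 ± 0.12, adjusted p = 0.00555), which was also near the pairwise threshold against EpiSC (adjusted p = 0.0533), and without adjustment 1 was higher and 1 lower. Of 6 platelet and erythroid markers 1 passed as lower, Ppbp (-1.55), and without adjustment 4 were lower and 0 higher, with Alas2 at -0.84 (adjusted p = 1). Markers of lymphatic endothelium (6 measured), neutrophils (12), T and NK cells (13), B cells (6) and adipocytes (8) gave 0 calls in limma and 0 higher with Benjamini-Hochberg adjustment. Without adjustment, at p under 0.05, neutrophils, T and NK cells and adipocytes had 1 higher gene each, lymphatic endothelium 2 lower and B cells 0, beside 9.72% higher and 9.83% lower over all probe sets. The members of these lists picked by the same measure had contrasts of -0.51 (Mmrn1), 0.32 (Clec4d), 0.39 (Klrb1c), -0.1 (Cd79a) and 0.42 (Pparg), none past the threshold.

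**Figure D4:**
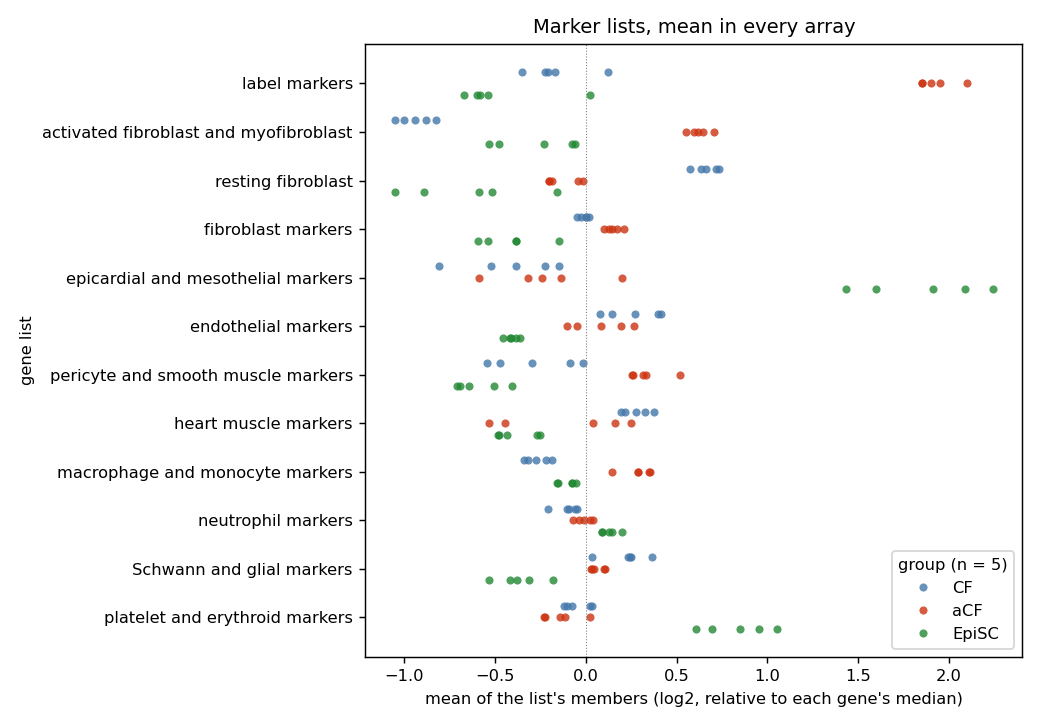
Mean log2 value of the measured members of 12 marker lists (rows) in each of the 15 arrays (points), 5 arrays a group, relative to each gene's median. The aCF arrays stand to the right of both other groups for the 5 label markers, the activated fibroblast list, general fibroblast markers, mural markers (0.25 to 0.52) and macrophage markers (0.14 to 0.35). Elsewhere they lie among the others or between them, with some exceptions. For heart muscle markers aCF4 (-0.534) lies below all other arrays. For platelet and erythroid markers aCF2, aCF4 and aCF5 lie below all CF and EpiSC arrays.

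The calls differed in how far they depended on single arrays. Of the 49 named genes, 25 stayed extreme in aCF alone in each of the 15 omissions of 1 array, among them Fmod, Bdnf, Ccn5, Mest, Sema7a, Sfrp2, Scube2, Mfap4 and Efemp1. Without aCF4 and aCF5, 14 stayed, a fit with fewer arrays. The signs of all 49 contrasts were the same under each alternative tried, and no contrast moved by over 1.5 times in fold without these 2 arrays. Calls were lost in 11 or more omissions for Acan, Rgs4, Ecrg4, Kcne4, Ptn, Mdk, Ctss, Unc5b, Hs3st1, Chpf, Kcnh1, Tnni3k, Fat1 and Galnt10. Of the lists, without aCF4 and aCF5 the contrast called 9 activated fibroblast genes, 3 matricellular, 2 collagen, 1 collagen-processing, 3 contractile, 2 mural, 1 macrophage, 1 Wnt antagonist and 1 semaphorin or guidance gene as higher.

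**Figure D5:**
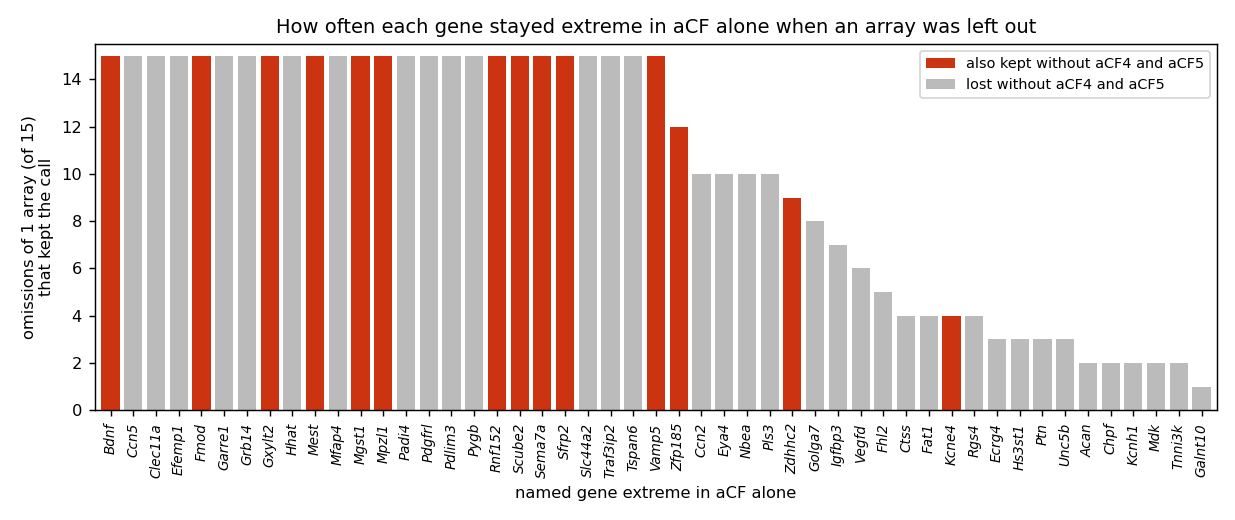
Number of omissions of 1 array, of 15 (y axis, bars from 0), in which each of the 49 named genes (x axis) stayed extreme in aCF alone, in red where the call also held without aCF4 and aCF5. The 25 genes at the left reach 15, and 14 bars are red.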

How the data were processed

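RNA of 15 samples was measured on Affymetrix arrays after amplification of 1 ng. The authors' processing, as the design text gives it, was done in GeneSpring GX 12.5: an exon RMA summary with quantile normalization, then centring of every probe set on its median. The deposited values are therefore log2 expression values (base 2 is inferred from the method and the range, -4.77 to 5.52), and the level above background is lost. The 20th percentile filter of the design text could not be applied.

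Identifiers were paired with values 6900 rows further on (6903 for chromosomes 10 and 11), which gave 13538 of 22206 probe sets a name from the platform annotation, updated through RefSeq. The first 6900 rows of values stayed unnamed. Over 108 members of 6 gene lists the mean correlation of deviations within groups was 0.163 at this displacement, 0.0051 as deposited and at most 0.045 at 40 neighbouring shifts. On chromosomes 10 and 11, 18 members gave 0.285 with the 3 further rows, -0.11 without them and at most 0.118 at the other extra shifts tried.

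All 15 arrays were fitted in limma 3.58.1 (R 4.3.3; lmFit, contrasts.fit, eBayes), 2-sided, with Bonferroni adjustment over 22206 rows, and the fit was tested on simulated data. Text names the 14 highest and 10 lowest named genes extreme in aCF alone without overlap (5 low ones existed), ranked by the smaller of both differences, 5 label markers, and up to 3 such members of each of 39 gene lists or, where there was none, the member with the largest smaller difference; other names were chosen after values were seen. Members and lists were chosen with earlier results of these data known. Alternatives were other adjustments, scalings, fits and omitted arrays.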

Additional observations from a re-analysis of the deposited data

Results flagged for a closer look

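In 411 groups of 5 arrays, those of every gene named in the text or extreme in aCF alone, 34 held 1 array far from the other 4 by Dixon's criterion, which chance alone meets in about 1 in 20 groups. Among genes extreme in aCF alone, Sema7a was lower in CF5 (-0.78), Acan higher in EpiSC4 (0.82), Traf3ip2 lower in CF1 (-0.25), Hs3st1 higher in CF5 (0.74), Sfrp2 higher in CF5 (-0.99) and Vegfd lower in CF5 (-0.90). Ptn was higher in CF1 (0), Hhat lower in aCF3 (0.86) and Mdk lower in aCF4 (0.54). In each of these genes the aCF arrays still did not overlap the other 10.

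Cemip, not extreme in aCF alone, was lower in CF3 (-3.47) and higher in EpiSC4 (1.87), which lay close to the lowest aCF array. EpiSC4 was also the lone array for the contractile genes Tagln (0.72) and Cnn1 (1.85), both higher there, and for Eln (-0.72) and Aqp1 (1.77), both lower there. In CF1, Lfng (-0.76), Fbln2 (-0.29), Sfrp1 (-0.25) and Ntrk3 (1.41) were lower than in the other CF arrays, and in CF5 P4ha3 was lower (-2.54). In aCF4, Mmp23 was higher (0.43), while Plxnc1 (-0.39), Heyl (-0.11) and Abcc9 (-0.79) were lower. In aCF3, Alas2 was higher (0.26), while Pparg (-0.02), Ccn1 (-0.09) and Ddah1 (1.52) were lower. Comp was lower in aCF5 (1.09) and Sparc higher in aCF2 (0.22). Among the other EpiSC arrays, Mmp3 (1.11) and Chad (1.94) were higher in EpiSC5, Bnip3 higher in EpiSC1 (0.40) and Ptprb lower in EpiSC2 (-2.38).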

How the results depend on the processing

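The contrast called 190 probe sets, 52 were extreme in aCF alone, and 49 of these were named. Leaving out 1 array gave 127 to 186 contrast calls, 31 to 51 extreme probe sets, and 28 to 37 of the 49 genes kept. With Benjamini-Hochberg adjustment the counts were 1549 (961 higher, 588 lower) and 483. A trended and robust fit left 30 extreme probe sets and 28 of the genes. Without aCF4 and aCF5 there were 86 contrast calls, 16 extreme probe sets and 14 genes. Fitting the pairwise tests on 2 groups at a time left 23 extreme probe sets, and asking for a smaller difference of at least 1 left 30. A replicate block by array number over all 3 groups gave 121 contrast calls, 20 extreme probe sets and 17 genes. CF arrays came from unstressed hearts, unlike aCF and EpiSC arrays. A block of aCF and EpiSC arrays of one number only gave 201 contrast calls, 54 extreme probe sets and all 49 genes. The correlation estimated for such arrays in that fit was 0.0404. Whether aCF and EpiSC arrays of one number came from the same heart is not known. After group means were taken off, aCF and EpiSC arrays of one number correlated at 0.035, 0.027, 0.053, 0.17 and -0.003. Of 5 aCF arrays, 2 correlated best with their own number. Correlations over many probe sets cannot settle a pairing. Why calls were lost under the block over all 3 groups was not tested. Quantile normalization kept 48 of the 49 genes and array weights 42. Counts of higher calls in gene lists moved too. Under the block over all 3 groups the count was 4 against 8 for cartilage and tendon and 1 against 4 for collagen folding. It was 1 against 3 for metalloproteinases and inhibitors, and 0 against 1 for Schwann cells and the IGF axis. For neurotrophic, TGF-beta and BMP, imprinted, integrin and macrophage genes it was 1 against 2. In the trended and robust fit it was 1 against 3 for the cell cycle, 0 against 1 for Notch and 2 against 4 for collagen folding. For neurotrophic, TGF-beta and BMP, and integrin genes that fit gave 1 against 2. Without aCF4 and aCF5 it was 2 against 8 for cartilage and tendon, 3 against 5 for label markers and 9 against 14 for activated fibroblasts. It was then 1 against 4 for collagen folding, and 1 against 3 for the cell cycle, metalloproteinases and Wnt antagonists. Fibrillar collagens and mural markers had 2 against 4, and Schwann cells and the IGF axis 0 against 1. Neurotrophic, imprinted, integrin, macrophage, semaphorin or guidance and G protein regulator genes had 1 against 2. No contrast of a named gene changed sign. The cause of the moved counts was not tested, except that omissions leave fewer arrays. Limits: 1 platform, 5 arrays a group, centred values without background, and names that rest on an inferred displacement.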

Other observations

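Probe sets that passed the contrast without being extreme in aCF alone numbered 138. Cemip, which degrades hyaluronan, differed by 5.44 from CF and by 1.83 from EpiSC (adjusted p = 0.568), and Kif26b, a kinesin-like protein, by 4.00 and 1.64 (adjusted p = 0.683). The aCF arrays of Cemip lay above all others by 0.03 only, since EpiSC4 held 1.87 while the other EpiSC arrays held at most 0.08, and those of Kif26b by 0.21. Adenosine deaminase, Ada, stood in the same order, with 2.19 above CF and 1.08 above EpiSC (adjusted p = 0.13). On the lower side, Frmd4b differed by -1.84 from CF (adjusted p = 1) and by -2.70 from EpiSC (adjusted p = 0.0214), and Ptges, a prostaglandin E synthase, by -0.88 (adjusted p = 0.173) and -1.24 (adjusted p = 0.00316), both without overlap of arrays. These genes were chosen after their values were seen, for large differences without overlap.

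In the first 6900 rows of values, which carry no name, 7 probe sets passed the contrast and 0 were extreme in aCF alone. On chromosomes 10 and 11, where the displacement differs by 3 rows, 9 of the 52 extreme probe sets were found, among them Ccn2, Eya4, Unc5b, Mfap4, Efemp1 and Igfbp3.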
